A study of Homo sapiens with 12 samples.

Results

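The core genes of RNA interference and microRNA biogenesis were followed across all 12 libraries: DROSHA, DGCR8, XPO5, DICER1, TARBP2, AGO1, AGO2, AGO3 and AGO4. They were chosen by name, 9 of 60609 annotated genes, and a gene's level is its TPM, a length-corrected share of the library's transcripts scaled to a fixed total, summed over its annotated transcripts. Each of the 9 reached 1 TPM in 2 or more libraries, so that all were among the 17185 genes tested.

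The cells were NS-SV-AC, an established human cell line labelled as salivary gland acinar, and polyadenylated RNA was sequenced. A pair of replicate libraries was made for each of 6 groups: DMSO (the solvent) with depc, DMSO with poly I:C, 2-CM with depc, 2-CM with poly I:C, RES with depc and RES with poly I:C. 2-CM is 2'-C-methyladenosine, a nucleoside analogue, and RES is resveratrol, a plant stilbenoid. Poly I:C is a synthetic double-stranded RNA that was transfected for 14 h, and depc is the name the labels give to the control transfection. Each compound was added 24 h ahead of the transfection and once more at it, at 20 µM as the labelled unit was read, and DMSO at an equal volume. The cells were grown for 48 h. Nothing in the labels says that replicates came from separate cultures, so the p-values measure the spread between these libraries, which may be technical.

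MicroRNAs are cut from long nuclear transcripts by the Microprocessor, in which the RNase III enzyme DROSHA works with its RNA-binding partner DGCR8. Exportin-5, encoded by XPO5, carries the hairpins to the cytoplasm, where the RNase III enzyme DICER1 trims them and long double-stranded RNA to short duplexes. TARBP2 encodes TRBP, a double-stranded RNA-binding partner of Dicer that also inhibits the kinase PKR. An argonaute protein then holds a strand of the duplex as a guide to its targets. Of the mammalian argonautes, AGO2 is the one best known for cutting its targets, and all members of the family repress mRNAs through GW182 proteins and deadenylases. Double-stranded RNA of the poly I:C kind also sets off interferon signalling in epithelial cells.

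DGCR8 carries microRNA hairpins inside its own exons, and Drosha cutting of this mRNA is a known feedback on the Microprocessor. The mature sequences are shown because DGCR8 was among the genes called under 2-CM in the main fit, a call that not every alternative kept. The sequences are from RefSeq on GRCh38.p14 and lie on the plus strand of chromosome 22. Capitals mark the seed, bases 2 to 8.
hsa-miR-3618: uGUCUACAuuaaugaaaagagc
hsa-miR-1306-5p: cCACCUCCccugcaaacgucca
hsa-miR-1306-3p: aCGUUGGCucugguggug
No seed was shared among the 3. DICER1 holds a further microRNA gene, MIR3173, in an intron on its own strand. The libraries were of polyadenylated RNA, and the MIR3618 and MIR1306 genes were near 0 TPM, at most 0.000204 and 0.00304. Mature microRNAs were therefore not measured here.

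Promoter windows of 300 bases, mostly upstream of a RefSeq start, were matched for 8 of the 9 genes, all but AGO2, and gave 14 windows because DICER1 and TARBP2 have several starts. The windows of the genes called under 2-CM are shown, each on the plus strand of GRCh38.p14, and of the 3 windows of TARBP2 the most upstream. Capitals mark the GC box GGGCGG on either strand.
DGCR8, chr22:20079991-20080290: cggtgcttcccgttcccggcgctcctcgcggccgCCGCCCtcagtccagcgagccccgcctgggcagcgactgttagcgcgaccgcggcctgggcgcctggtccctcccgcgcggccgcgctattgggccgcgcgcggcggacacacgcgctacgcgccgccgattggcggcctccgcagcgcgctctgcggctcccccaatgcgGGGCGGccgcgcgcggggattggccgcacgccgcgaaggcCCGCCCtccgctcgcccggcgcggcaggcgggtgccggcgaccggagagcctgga
TARBP2, chr12:53500673-53500972: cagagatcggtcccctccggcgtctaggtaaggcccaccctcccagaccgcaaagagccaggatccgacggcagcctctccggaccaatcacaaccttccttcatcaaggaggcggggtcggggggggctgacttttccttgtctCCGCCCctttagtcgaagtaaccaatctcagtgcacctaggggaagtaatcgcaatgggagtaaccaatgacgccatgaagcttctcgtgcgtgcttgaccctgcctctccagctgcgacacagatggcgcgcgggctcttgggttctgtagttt
AGO3, chr1:35930855-35931154: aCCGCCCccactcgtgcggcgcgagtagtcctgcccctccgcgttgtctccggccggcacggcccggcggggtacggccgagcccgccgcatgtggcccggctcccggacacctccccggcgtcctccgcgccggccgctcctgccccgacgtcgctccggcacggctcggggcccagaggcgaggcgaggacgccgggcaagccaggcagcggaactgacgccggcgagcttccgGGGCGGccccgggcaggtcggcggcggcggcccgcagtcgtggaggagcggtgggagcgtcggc
The GC content was 80.3% in the DGCR8 window, 59.0% in the TARBP2 window shown (68% in each of its others) and 80.0% in the AGO3 window, against a median of 58.7% over all promoters in the table. Both strands were searched for each motif, and no motif holds another. The GC box was in 10 of the 14 windows and in 45.0% of 35116 promoters. The windows are not all separate: a pair of DICER1 windows overlap and hold the same GC box, which was counted in each. DICER1 and TARBP2, with several windows, also weigh more in these counts. The CCAAT box (CCAAT) was in 7 of the 14 windows and in 34.6% of promoters, and the TATA box (TATAAA) was in none of the 14 and in 11.5% of promoters. The core of the interferon-stimulated response element (GAAA, then 2 bases of any kind, then GAAA) was in none of the 14 windows and in 3.57% of promoters. It was in 6 of 8 windows of the interferon-induced genes OAS1, OAS2, IFIT1, IFIT3, MX1 and ISG15. A match or its absence describes these letters in these windows only.

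Estimated depth was 31.2 to 49.4 M reads per library. The interferon-induced genes followed the labels: OAS1 was at 1.87 to 4.30 TPM with depc and at 109 to 255 TPM in the poly I:C libraries, and the ranges of the other 5 interferon-induced genes did not overlap either. Of 10 salivary acinar markers only BHLHA15 reached 1 TPM, in 6 libraries, and AQP5, MUC7, STATH and PRB1 were at 0 throughout. Of the epithelial markers KRT8 and KRT18 were at 466 TPM or more in all libraries, and KRT5 was at 0. KRT19 (at most 0.243 TPM) and CDH1 (at most 0.596 TPM) stayed low, and EPCAM (at most 1.23 TPM) reached 1 TPM in 2 libraries. As for other cell types, the leukocyte marker PTPRC was at 0 and the endothelial PECAM1 at most 0.0696 TPM. The fibroblast gene COL1A1 was at 15.9 to 100.3 TPM and the muscle gene DES at 1.25 to 3.91 TPM. Replicates of a group differed along the GC content of genes, with Spearman correlations across genes of -0.78 to 0.77, and so did the poly I:C differences, at -0.36 under DMSO, -0.80 under 2-CM and -0.62 under RES. Deviations of a library from the gene means correlated with GC content at 0.69 and 0.78 in 2-CM depc and -0.75 and -0.69 in 2-CM poly I:C libraries. The GC trend and the response to poly I:C thus cannot be told apart under 2-CM, and a correction may remove both. A fit with a correction for GC content was also run on all tested genes. For the 9 genes its values are given where it turned a response to poly I:C or changed a call. The lists of other genes are given from the fit without it.

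TARBP2 was the most abundant of the 9 mRNAs per length, with a mean of 69.7 TPM over the 12 libraries and a range of 37.4 to 119 TPM. DROSHA followed at a mean of 34.6 TPM, XPO5 at 33.1 and DGCR8 at 23.4. DICER1, the enzyme downstream of them, was lower, at a mean of 8.94 TPM. The argonautes were the least abundant, with means of 6.88 TPM for AGO2, 6.33 for AGO1, 3.48 for AGO4 and 3.18 for AGO3. Neighbours in this order overlapped across libraries: DROSHA spanned 19.5 to 49.1 TPM and XPO5 23.2 to 42.4 TPM, and AGO2 (2.85 to 9.92 TPM) lay over AGO1 (3.16 to 10.97 TPM). The widest relative range was that of DICER1, from 2.44 to 18.5 TPM, a ratio of 7.57 between its highest and lowest library. The narrowest was that of XPO5, a ratio of 1.83.

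**Figure D1:**
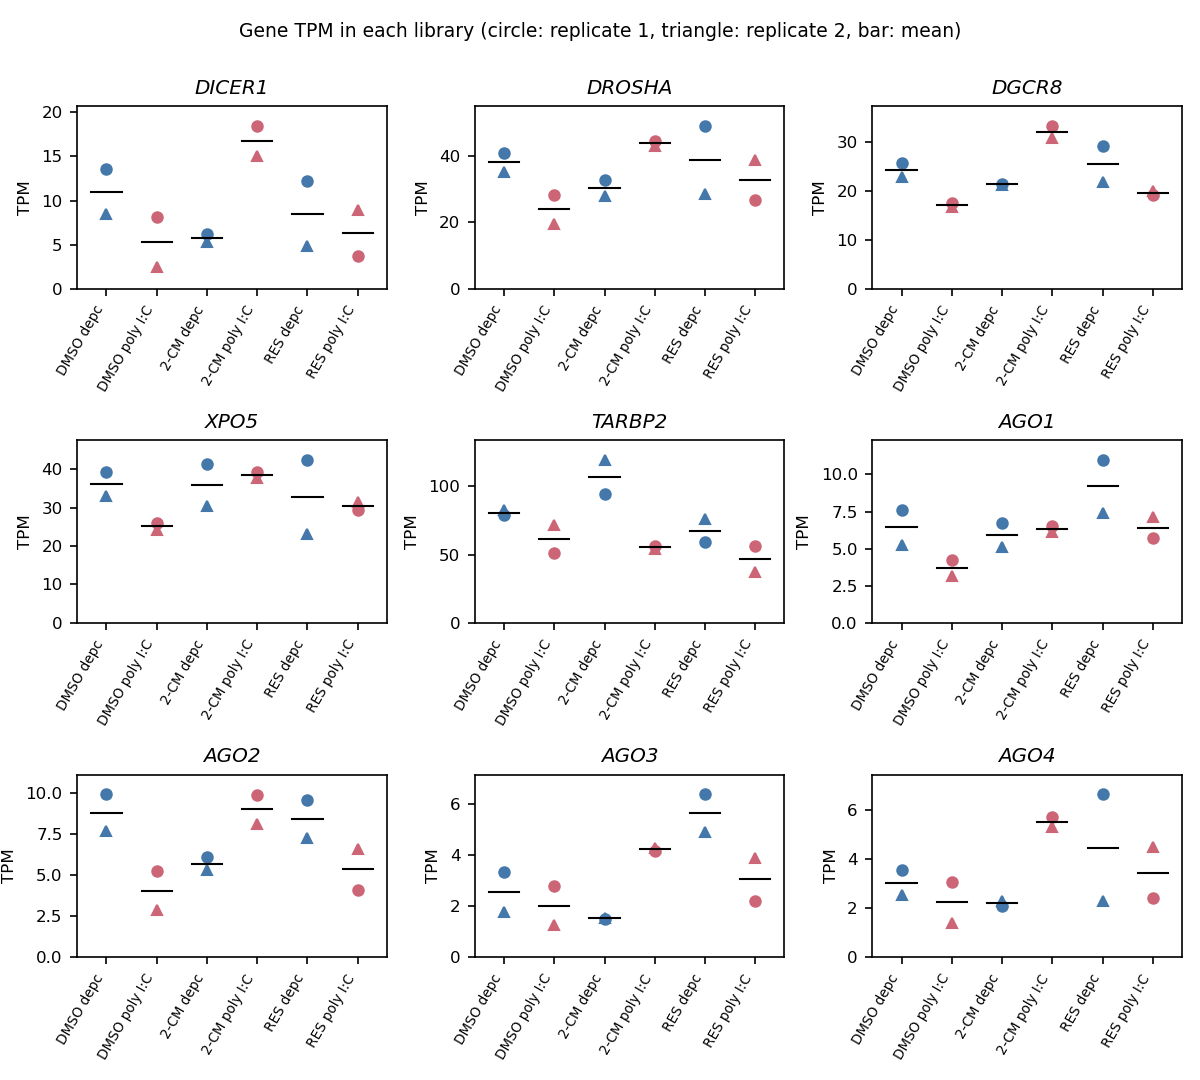
TPM of each gene (vertical axis, from 0) in the 12 libraries by group (horizontal axis); circles are replicate 1, triangles replicate 2, bars group means, blue depc and red poly I:C. TARBP2 is highest in the 2-CM depc libraries (94.1 and 119 TPM), while DICER1 is highest in the 2-CM poly I:C libraries (18.5 and 15.0 TPM).

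In the main fit, without GC correction or a replicate block, genes of the set were called with poly I:C under 2-CM and not under DMSO or RES. The difference of response between compounds was not called for any of the 9 in the same fit. A block with the replicate numbers of RES poly I:C crossed, chosen after seeing the data, called 4 lower under DMSO, where it called 17.8% of all genes. By the main fit none of the 9 genes passed under DMSO, against 4.08% of all genes, although all 9 were lower in the mean. Under 2-CM, 3 of the 9 passed, against 49.3% of all genes: DGCR8 rose 1.48-fold and AGO3 2.08-fold, where 37.5% of all genes were called higher, and TARBP2 fell to 0.527 of its depc level, where 11.8% were called lower. Under RES none passed, against 0.442% of all genes, and all 9 were again lower in the mean. The test was limma on log2(TPM + 1) across all tested genes with all 6 groups in the fit, and a call is a Benjamini-Hochberg adjusted p under 0.05. Fold changes are on that scale, which understates changes of low genes. The share called under 2-CM means that 3 of 9 is no more than the share of all genes. In bulk RNA, fewer cells of a type and less RNA per cell cannot be told apart.

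The median log2 difference of the 9 genes was -0.51 under DMSO, where the median of all genes was -0.14. It was 0.57 under 2-CM against 0.61 for all genes, and -0.36 under RES against -0.03. With GC correction the median of the 9 was negative beside each compound, at -0.51 under DMSO, -0.64 under 2-CM and -0.42 under RES. The poly I:C and depc libraries did not overlap for 7 of 9 genes under DMSO, all lower with poly I:C, against 33.4% of all genes lower without overlap. Under 2-CM there were 6 higher and 1 lower without overlap, against 62.6% and 23.9% of all genes. Under RES there were 5 lower, against 24.1% of all genes. At an unadjusted p under 0.05 there were 3 genes under DMSO, DGCR8, AGO1 and AGO2, against 19.7% of all genes, and 0 under RES by limma, against 14.0%. The authors' deposited table also listed none of the 9 at an adjusted p under 0.05 under DMSO or RES, where 1.25% and 0.363% of its genes were.

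**Figure D2:**
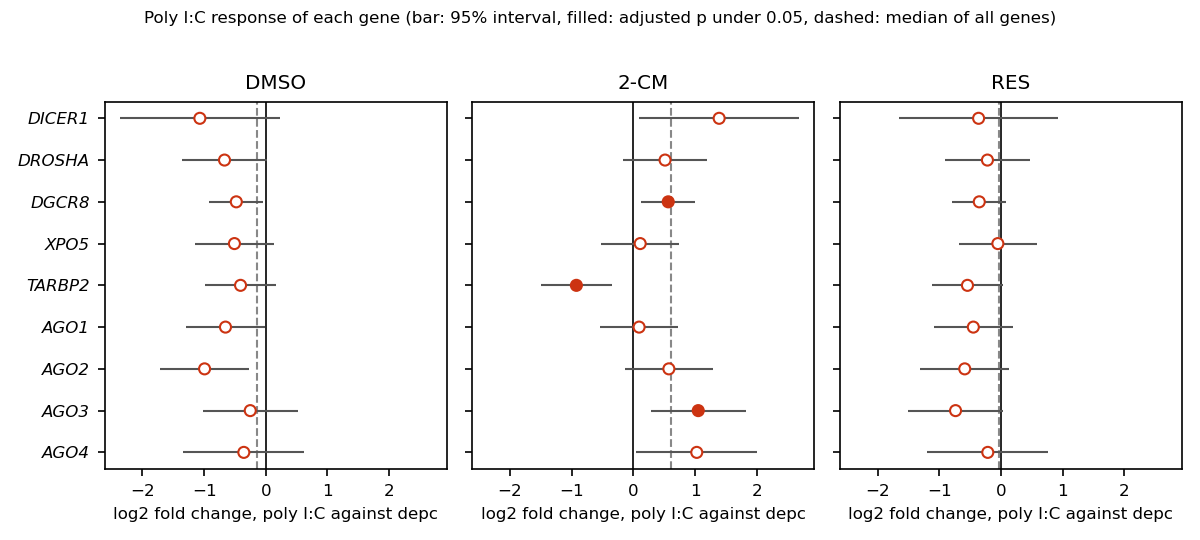
Log2 fold change of poly I:C against depc on log2(TPM + 1) (horizontal axis) for each gene (vertical axis) under DMSO, 2-CM and RES; bars are 95% intervals, filled points passed an adjusted p under 0.05, and the dashed line is the median of all tested genes. Only DGCR8, TARBP2 and AGO3 under 2-CM are filled, and the 9 points lie left of 0 under DMSO and RES.

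DROSHA (chromosome 5, 31400497 to 31532196, minus strand), the catalytic subunit of the Microprocessor, was at 41.0 and 35.0 TPM in the DMSO depc libraries and 28.1 and 19.5 TPM in the DMSO poly I:C libraries. Under 2-CM the order was the opposite, 32.8 and 28.001 TPM in depc and 44.4 and 43.1 TPM in poly I:C libraries. Under RES it was at 49.1 and 28.6 TPM in depc and 26.7 and 38.6 TPM in poly I:C libraries. The poly I:C libraries were the lower pair under DMSO and the upper pair under 2-CM without overlap, and the RES libraries overlapped. Beside DMSO the log2 difference was -0.67 (SE 0.30, adjusted p 0.264 by limma), beside 2-CM it was 0.51 (adjusted p 0.168), and beside RES -0.22 (adjusted p 0.791). With GC correction DROSHA was lower with poly I:C under DMSO (-0.72, adjusted p 0.00728) and under 2-CM (-0.72, adjusted p 0.00777), so that the direction under 2-CM turned.

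DGCR8 (chromosome 22, 20080232 to 20111877, plus strand), the RNA-binding subunit, was at 25.8 and 22.9 TPM in the DMSO depc libraries and 17.6 and 16.7 TPM in the DMSO poly I:C libraries. Under 2-CM it was at 21.5 and 21.3 TPM in depc and 33.4 and 31.0 TPM in poly I:C libraries. Under RES it was at 29.2 and 21.8 TPM in depc and 19.2 and 19.9 TPM in poly I:C libraries. The groups did not overlap under any compound, and the 2-CM poly I:C pair was the highest of the 12 libraries. DGCR8 rose under 2-CM by 0.57 on the log2 scale (SE 0.19, adjusted p 0.0399, limma), with -0.48 (adjusted p 0.209) under DMSO and -0.35 (adjusted p 0.472) under RES. The call was kept with GC correction (0.73, adjusted p 0.0148), which put DGCR8 at -0.18 (adjusted p 0.493) under DMSO and -0.045 (adjusted p 0.914) under RES, while median-of-ratios scaling put DGCR8 at -0.25 (adjusted p 0.417) and upper-quartile scaling at -0.043. Those scalings moved the median of all genes under 2-CM from 0.61 to 0.03 and 0.18. DGCR8 was below the median of all genes under either of them, and also in the main fit (0.57 against 0.61).

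XPO5 (chromosome 6, 43522334 to 43576038, minus strand), the export receptor, was at 39.3 and 33.1 TPM in the DMSO depc libraries and 26.0 and 24.2 TPM in the DMSO poly I:C libraries. Under 2-CM it was at 41.3 and 30.4 TPM in depc and 39.2 and 37.6 TPM in poly I:C libraries, and under RES at 42.4 and 23.2 TPM in depc and 29.3 and 31.5 TPM in poly I:C libraries. Only the DMSO groups did not overlap. For DMSO, 2-CM and RES in turn, the log2 differences were -0.51 (adjusted p 0.374 by limma), 0.11 (adjusted p 0.746) and -0.05 (adjusted p 0.949). With GC correction XPO5 fell under 2-CM (-0.71, adjusted p 0.0140), and with median-of-ratios scaling too (-0.72, adjusted p 0.0440). XPO5 shares 348 exon bases, 4.10% of its exon length, with POLR1C on the opposite strand, and use of strand in counting was not stated, so reads there cannot be told apart.

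DICER1 (chromosome 14, 95086228 to 95158010, minus strand) was at 13.6 and 8.46 TPM in the DMSO depc libraries and 8.11 and 2.44 TPM in the DMSO poly I:C libraries. Under 2-CM it was at 6.22 and 5.28 TPM in depc and 18.5 and 15.0 TPM in poly I:C libraries. Under RES it was at 12.2 and 4.81 TPM in depc and 3.67 and 8.98 TPM in poly I:C libraries. The 2-CM poly I:C pair was again above all other libraries, while replicates of the DMSO poly I:C and both RES groups lay far apart. The log2 differences were 1.39 (SE 0.57, adjusted p 0.0664 by limma) under 2-CM, -1.07 (adjusted p 0.354) under DMSO and -0.36 (adjusted p 0.815) under RES, and none was a call. GC correction turned the 2-CM difference to -0.25 (adjusted p 0.195), and under it DICER1 fell under DMSO (-1.12, adjusted p 0.00145) and under RES (-0.67, adjusted p 0.0360, and 0.0539 with the replicate number as a block). DICER1 is an AT-rich mRNA, with 39.8% GC in its exons.

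TARBP2 (chromosome 12, 53500921 to 53506431, plus strand), the Dicer partner, was at 78.7 and 82.3 TPM in the DMSO depc libraries and 51.1 and 71.3 TPM in the DMSO poly I:C libraries. Under 2-CM it was at 94.1 and 119 TPM in depc and 56.4 and 54.4 TPM in poly I:C libraries. Under RES it was at 59.1 and 76.2 TPM in depc and 56.1 and 37.4 TPM in poly I:C libraries. Every poly I:C library lay below both depc libraries of its compound, and the 2-CM depc pair was the highest of all. TARBP2 fell by 0.92 under 2-CM on the log2 scale (SE 0.25, adjusted p 0.0292, limma), and was at -0.41 (adjusted p 0.446) under DMSO and -0.54 (adjusted p 0.386) under RES. With GC correction TARBP2 was at -0.69 (adjusted p 0.0190) under 2-CM, -0.082 (adjusted p 0.791) under DMSO and -0.21 (adjusted p 0.557) under RES.

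Averaged over the 3 compounds, TARBP2 was the 1 gene of the 9 that passed, against 31.2% of all genes and 17.8% called lower. It fell by 0.62 (SE 0.15, adjusted p 0.0159, limma), a level of 0.649 of depc. Its TPM in 6 of 6 poly I:C libraries was below both depc libraries of the compound. The share of all genes in this order was not counted. Estimated TARBP2 reads, not scaled to depth, overlapped under RES, at 2196 and 3006 (depc) and 2392 and 1315 (poly I:C). The average was also called lower with GC correction (-0.33, adjusted p 0.0281), where the difference was widest under 2-CM, and with median-of-ratios scaling (-0.85, adjusted p 0.0341). Without the second DMSO depc library the adjusted p was 0.0530 and without the second 2-CM depc library 0.0573. With GC correction 8 of the 9 genes were called lower on average, all but DGCR8, against 19.9% of all genes called lower. With the replicate number as a block as well, 7 were called lower, where 36.9% of all genes were called in either direction. The 8 called without the block ran from -0.68 for DICER1 to -0.29 for AGO4.

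AGO2 (on chromosome 8), the argonaute with slicing activity, was at 9.92 and 7.68 TPM in the DMSO depc libraries and 5.22 and 2.85 TPM in the DMSO poly I:C libraries. It was at 6.11 and 5.29 TPM in depc and 9.88 and 8.14 TPM in poly I:C libraries under 2-CM. It was at 9.58 and 7.24 TPM in depc and 4.08 and 6.62 TPM in poly I:C libraries under RES. The groups did not overlap under any compound, lower with poly I:C under DMSO and RES and higher under 2-CM. The DMSO difference of -0.99 (SE 0.32) had the lowest adjusted p of the 9 there, 0.118 by limma, and passed with GC correction (-1.0, adjusted p 0.00325). The other differences were 0.58 (adjusted p 0.146) under 2-CM, turned to -0.27 by GC correction, and -0.59 (adjusted p 0.463) under RES.

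The other argonautes lie in a row on the plus strand of chromosome 1: AGO4 (35808016 to 35857890), AGO1 (35869808 to 35930532) and AGO3 (35930718 to 36072500). AGO4 and AGO1 are 11917 bases apart and AGO1 and AGO3 only 185 bases, within a span of 264485 bases. The family members are close paralogs, and how reads common to them were shared out was not stated, so the split between them is uncertain.

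AGO1 was at 7.62 and 5.24 TPM in the DMSO depc libraries and 4.23 and 3.16 TPM in the DMSO poly I:C libraries, in the 2-CM libraries at 6.73 and 5.11 TPM (depc) and 6.54 and 6.13 TPM (poly I:C), and in the RES libraries at 10.97 and 7.42 TPM (depc) and 5.69 and 7.10 TPM (poly I:C). It was lower with poly I:C without overlap under DMSO (-0.65, adjusted p 0.242 by limma) and RES (-0.45, adjusted p 0.542), and overlapped under 2-CM (0.09, adjusted p 0.787). With GC correction AGO1 fell under DMSO (-0.67, adjusted p 0.0111) and under 2-CM (-0.80, adjusted p 0.00613).

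AGO3 was at 3.36 and 1.79 TPM in the DMSO depc libraries and 2.79 and 1.27 TPM in the DMSO poly I:C libraries, in the 2-CM libraries at 1.49 and 1.55 TPM (depc) and 4.16 and 4.30 TPM (poly I:C), and in the RES libraries at 6.40 and 4.91 TPM (depc) and 2.22 and 3.90 TPM (poly I:C). The groups overlapped in TPM under DMSO only. Estimated reads, not scaled to depth, overlapped under RES too, at 2042 and 523 (depc) and 707 and 1157 (poly I:C). The transcript ENST00000397828.3, of 1035 bases, held a mean of 26.6% of AGO3 TPM in the RES depc group. In a single library of that group it held 48.3%, against a median of 7.73% over the 12 libraries. Protein-coding transcripts of AGO3 overlapped under RES, at 4.44 and 2.96 TPM (depc) and 1.29 and 3.32 TPM (poly I:C). The part of ENST00000397828.3 in these levels was not tested. The authors' deposited table listed AGO3 at a log2 fold change of -0.19 under RES. AGO3 rose under 2-CM by 1.05 (SE 0.34, adjusted p 0.0358, limma), with -0.25 (adjusted p 0.782) under DMSO and -0.74 (adjusted p 0.378) under RES. GC correction turned the 2-CM difference of AGO3 to -0.64 (adjusted p 0.0931), and the call was also lost with upper-quartile scaling (0.59, adjusted p 0.0872) and with median-of-ratios scaling (0.44, adjusted p 0.163). AGO3 has the lowest GC content of the 9, at 39.1%.

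AGO4 was at 3.54 and 2.52 TPM in the DMSO depc libraries and 3.07 and 1.40 TPM in the DMSO poly I:C libraries, in the 2-CM libraries at 2.09 and 2.29 TPM (depc) and 5.73 and 5.30 TPM (poly I:C), and in the RES libraries at 6.63 and 2.28 TPM (depc) and 2.41 and 4.47 TPM (poly I:C). Only the 2-CM groups did not overlap, with a difference of 1.03 (adjusted p 0.0720 by limma) that GC correction put at -0.09. AGO4 was at -0.36 (adjusted p 0.758) under DMSO and -0.21 (adjusted p 0.855) under RES.

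The calls under 2-CM rested on each of the 4 libraries compared, and that of DGCR8 also on the DMSO depc libraries, at adjusted p 0.0589 and 0.0596 without the first and the second. Leaving out any of the 2-CM libraries left 0 of the 9 genes called, where the lone library is assumed to vary like the other groups, and 37 to 46 of all genes were then called. TARBP2 kept its direction in every such fit (-1.09 to -0.75), as did DGCR8 (0.51 to 0.62) and AGO3 (1.03 to 1.07). A fit of the 2-CM groups alone called 7 of the 9, all but XPO5 and AGO1, with 6 higher and TARBP2 lower, against 69% of all genes.

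In the authors' deposited table for 2-CM, 5 of the 9 genes were at an adjusted p under 0.05, where 46.4% of the genes with an adjusted p were. TARBP2 was the furthest, at a log2 fold change of -1.84 (adjusted p 3.66e-21). XPO5 (-0.82) and AGO1 (-0.68) were lower in that deposited table, and DICER1 (0.68) and AGO3 (0.77) were higher. DGCR8 was listed at -0.22 (adjusted p 0.328) in the authors' deposited table. TARBP2 and AGO3 were thus called in the same direction in both sources, and DGCR8 in the TPM fit alone.

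The GC content of the exons set a scale for these differences. Genes were split into 10 equal bins by GC content, and under 2-CM the median difference ran from 1.92 in the lowest bin to -0.61 in the highest. DICER1 (39.8% GC) and AGO3 (39.1%) lay in bin 2, with a median of 1.66, and DGCR8 (56.0%) and TARBP2 (56.9%) in bin 8, with a median of -0.22. DGCR8 was above the upper quartile of its bin under 2-CM and TARBP2 below the lower quartile, though their GC contents are near equal. Below the lower quartile of their own bin were 6 of the 9 genes under DMSO, 5 under 2-CM and 7 under RES. No gene of the 9 other than DGCR8 under 2-CM lay above the upper quartile.

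**Figure D3:**
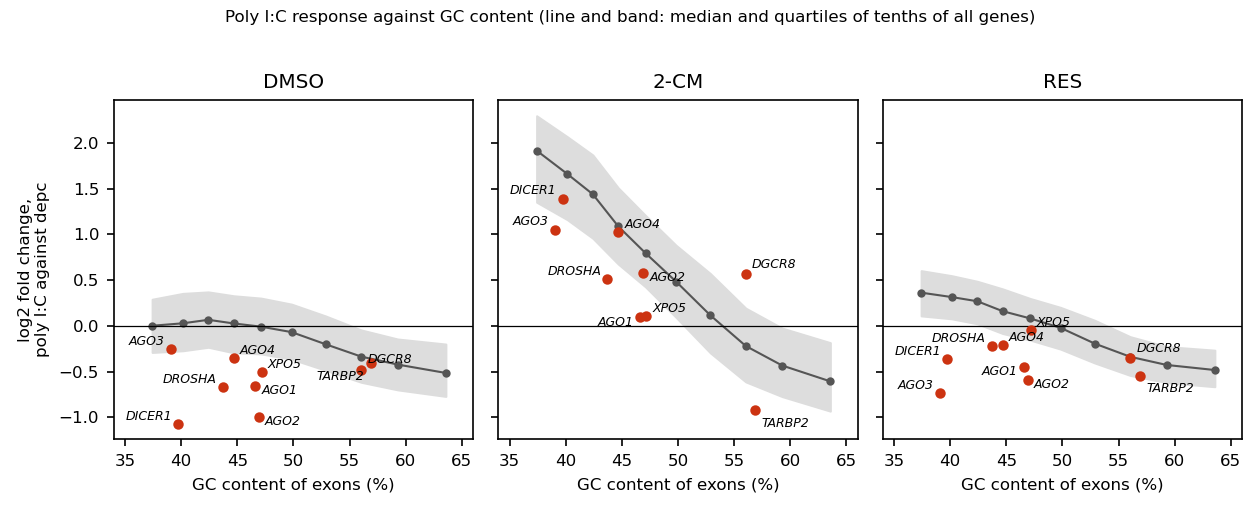
Log2 fold change of poly I:C against depc (vertical axis) against the GC content of exons in percent (horizontal axis) under DMSO, 2-CM and RES; the line and band are the median and quartiles of 10 GC bins of all tested genes, and red points are the 9 genes. The line falls from 1.92 to -0.61 under 2-CM, DGCR8 (0.57) lies above the band there and TARBP2 (-0.92) below it.

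With GC correction and a call at an adjusted p under 0.05 by limma, 4 of the 9 genes were lower under DMSO, DICER1, DROSHA, AGO1 and AGO2, against 9.49% of all genes. Under 2-CM 4 were lower, DROSHA, XPO5, AGO1 and TARBP2, against 15.8% of all genes, and DGCR8 was higher, against 14.5%. Under RES 2 were lower, DICER1 and AGO2 (-0.67, adjusted p 0.0472), against 2.00% of all genes. With the replicate number as a block beside GC correction neither was called under RES, at adjusted p 0.0539 for DICER1 and 0.0695 for AGO2. Nearest to a call among the rest were XPO5 under DMSO (-0.51, adjusted p 0.0545), and AGO1 (-0.55, adjusted p 0.0635) and AGO3 (-1.06, adjusted p 0.0698) under RES. The SE of DICER1 under a compound was 0.57 without GC correction and 0.14 with it.

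The change of response between compounds was tested directly. The poly I:C response under 2-CM minus that under DMSO was positive for 8 of the 9 genes, with a median of 1.18 against 0.68 for all genes. None passed by limma, against 0.0116% of all genes, and 5 were at an unadjusted p under 0.05, against 29.7% of all genes: DICER1, DROSHA, DGCR8, AGO2 and AGO3. The difference was 2.46 for DICER1 (95% interval 0.63 to 4.29), 1.57 for AGO2 (0.55 to 2.59), 1.18 for DROSHA (0.22 to 2.15) and 1.04 for DGCR8 (0.43 to 1.66), each at an adjusted p of 0.161 by limma. TARBP2 was the exception in sign, at -0.51 (-1.33 to 0.30). A block with the replicate numbers of RES poly I:C crossed, chosen after seeing the data, called 7 of the 9, where it called 42.5% of all genes. The median of the 9 fell to -0.0040 with GC correction, 0.45 with upper-quartile scaling and 0.20 with median-of-ratios scaling. With GC correction DICER1 was at 0.87, AGO2 at 0.73 and DGCR8 at 0.91, and the differences for DROSHA (-0.0040), XPO5 (-0.20), AGO1 (-0.13) and AGO3 (-0.34) changed sign. For RES minus DMSO none of the 9 passed, against 0% of all genes, with 7 positive and 0 at an unadjusted p under 0.05, against 1.70% of all genes. These differences share the DMSO libraries.

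Without poly I:C, neither compound moved any of the 9 past the test. For 2-CM against DMSO with depc, 0 of 9 were called by limma against 0.0349% of all genes, and 0 were at an unadjusted p under 0.05, against 4.84%. Without overlap 6 were lower under 2-CM and 1, TARBP2, was higher, against 33.3% and 22.8% of all genes. DICER1 had the lowest value (-0.80, 95% interval -2.10 to 0.49) and TARBP2 the highest (0.39, -0.19 to 0.97). For RES against DMSO with depc, 0 of 9 were called by limma against 1.03%, and 1 was at an unadjusted p under 0.05, against 14.7%. That gene was AGO3, with a difference of 0.92 (95% interval 0.15 to 1.69, adjusted p 0.235), whose RES libraries (6.40 and 4.91 TPM) lay above its DMSO libraries (3.36 and 1.79 TPM). In estimated reads of AGO3 the second RES depc library (523) lay below both DMSO depc libraries (1110 and 652). AGO3 was the 1 gene higher without overlap, against 25.7% of all genes, and TARBP2 the 1 lower, against 8.47%.

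With poly I:C, 8 of the 9 genes were higher under 2-CM than under DMSO without overlap, all but TARBP2, against 70.4% of all genes. None was called by limma, against 0.105% of all genes, and 7 were at an unadjusted p under 0.05, against 34.2%. DGCR8 came nearest (0.87, SE 0.19, adjusted p 0.0905), and DICER1 had the widest difference (1.66, SE 0.57, adjusted p 0.118). TARBP2 was at -0.12 (95% interval -0.70 to 0.46). The block with crossed numbers called the 8 others here, and 50.7% of all genes. The median of the 9, 0.87, was 0.044 with GC correction, 0.21 with upper-quartile scaling and 0.12 with median-of-ratios scaling. With GC correction DICER1 was called (0.60, adjusted p 0.0493, and 0.0621 with the replicate block), where 4.15% of all genes were, and XPO5 (-0.022) and AGO3 (-0.25) changed sign. For RES against DMSO with poly I:C none of the 9 was called by limma, against 0.157% of all genes, and AGO1 (0.66, adjusted p 0.358) was the 1 at an unadjusted p under 0.05, against 13.4%. DGCR8, XPO5 and AGO1 were higher without overlap, against 28.3% of all genes. Both compounds were given at the same dose and time.

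The summed level of the 4 argonautes was 20.8 ± 5.11 TPM (SD, n = 2) in the DMSO depc group and 11.99 ± 4.68 TPM in the DMSO poly I:C group. The 2-CM groups summed to 15.3 ± 1.55 TPM (depc) and 25.1 ± 1.73 TPM (poly I:C), and the RES groups to 27.7 ± 8.30 TPM (depc) and 18.2 ± 5.44 TPM (poly I:C). The make-up of that sum shifted too. AGO1 made up 38.4% ± 3.57 of it with depc and 25.3% ± 0.57 with poly I:C under 2-CM, while AGO4 went from 14.4% ± 2.35 to 22.0% ± 0.31 and AGO3 from 9.99% ± 1.27 to 16.9% ± 1.56. AGO2 held 42.6% ± 2.83 in DMSO depc and 33.5% ± 0.89 in DMSO poly I:C, and 30.8% ± 3.27 and 29.1% ± 1.15 under RES. Without overlap between depc and poly I:C, the share of AGO1 was lower with poly I:C under 2-CM and that of AGO2 under DMSO. The shares of AGO3 and AGO4 were higher with poly I:C under 2-CM and under DMSO, where AGO3 held 13.7% and 10.4% with depc and 18.2% and 14.6% with poly I:C. Under RES the share of AGO3 was lower with poly I:C, at 15.4% and 17.7% against 19.1% and 22.5%, and the other shares overlapped. The 22.5% is of the second RES depc library, which had the fewest estimated AGO3 reads of the RES libraries, 523. Shares were not tested. AGO3 (39.1% GC) and AGO4 (44.7% GC) are more AT-rich than AGO1 (46.6%) and AGO2 (46.9%), and the part of GC content in the shares was not tested.

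**Figure D4:**
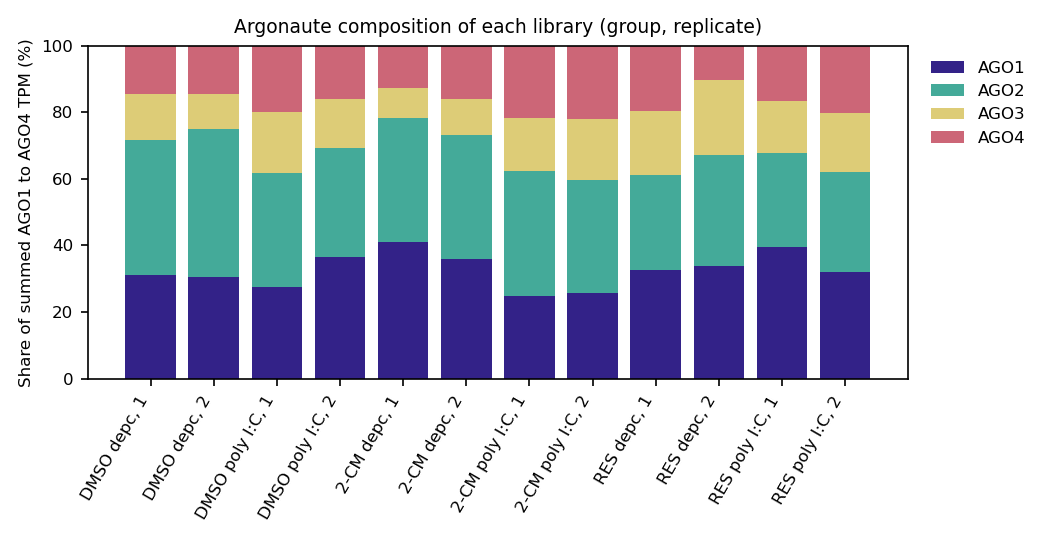
Share of the summed AGO1 to AGO4 TPM held by each argonaute in percent (vertical axis) in the 12 libraries (horizontal axis, group and replicate). AGO1 takes 40.9% and 35.9% in the 2-CM depc libraries and 24.9% and 25.7% in the 2-CM poly I:C libraries.

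The transcript make-up of DGCR8 was ordered by transfection within each compound. How many other genes had shares ordered in this way was not counted. Transcripts annotated as retained introns, which hold unspliced sequence, carried a median of 21.1% of its TPM, and the rest was nearly all on protein-coding transcripts. The retained-intron share was 21.1% and 25.8% with depc and 17.9% and 15.0% with poly I:C under DMSO. It was 23.2% and 22.4% and then 21.1% and 18.7% under 2-CM, and 24.1% and 27.5% and then 18.2% and 17.5% under RES. In every compound the poly I:C libraries lay below the depc libraries, and over all 12 libraries the ranges overlapped narrowly, the first 2-CM poly I:C library (21.14%) lying above the first DMSO depc library (21.11%). The rise of DGCR8 under 2-CM was on both classes: protein-coding transcripts went from 16.5 ± 0.0051 to 25.7 ± 0.83 TPM (SD, n = 2) and retained-intron transcripts from 4.88 ± 0.16 to 6.43 ± 0.89 TPM. Shares were not tested.

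**Figure D5:**
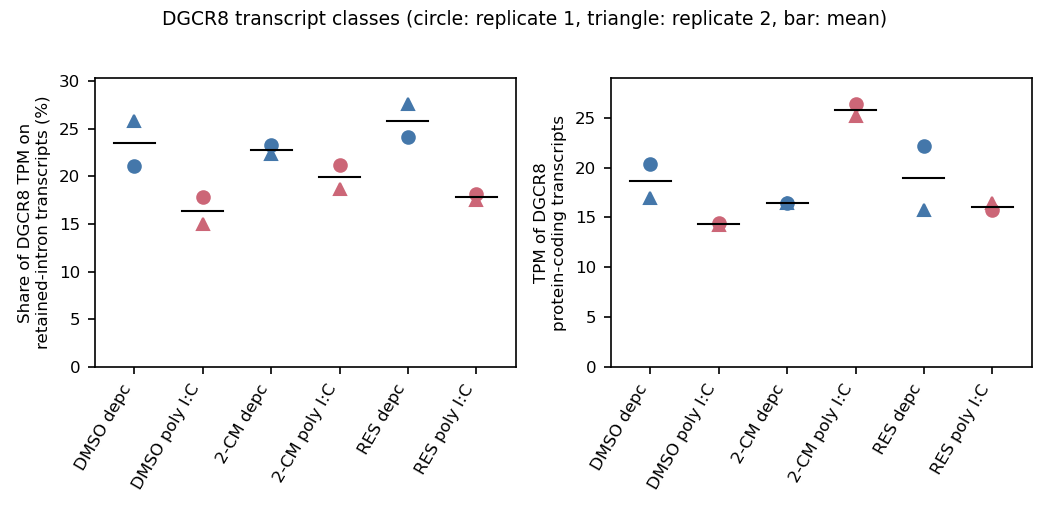
Left, share of DGCR8 TPM on retained-intron transcripts in percent, and right, TPM of DGCR8 protein-coding transcripts (vertical axes, from 0), in each library by group; circles are replicate 1, triangles replicate 2, bars group means, blue depc and red poly I:C. Within each compound the share is lower with poly I:C, and the protein-coding TPM is highest in the 2-CM poly I:C libraries (26.3 and 25.2).

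TARBP2 was the gene of the 9 with the smallest coding part. Protein-coding transcripts carried a median of 49.5% of its TPM (32.2% to 66.7% over libraries), and transcripts annotated for nonsense-mediated decay, an mRNA surveillance route, carried 39.4% (20.0% to 58.7%). Its retained-intron share was 9.06% ± 0.55 with depc and 14.7% ± 0.65 with poly I:C under DMSO (SD, n = 2), and 8.87% ± 0.34 and 17.9% ± 3.83 under 2-CM, with no overlap in either. Under RES it was 11.9% ± 2.06 and 12.3% ± 1.68, which overlapped. The TPM of TARBP2 protein-coding transcripts alone went from 43.7 ± 7.57 to 26.4 ± 9.82 under 2-CM and from 41.3 ± 1.97 to 29.1 ± 7.59 under DMSO, without overlap. These splits rest on TARBP2 transcripts that share most of their exons. The splits were not tested, and how many other genes were so ordered was not counted.

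DICER1 was nearly all on protein-coding transcripts, with a median of 97.9% of its TPM. A pair of them, ENST00000343455.7 and ENST00000393063.5, held 84.8% to 97.2% of DICER1 in every library. The split between this pair had no order by group: ENST00000343455.7 held 68.5% in the first RES depc library and 0.203% in the second. DROSHA, XPO5 and AGO4 were also mostly coding, with medians of 93.7%, 93.7% and 95.9%. The retained-intron share of XPO5 was 5.31% ± 1.26 with depc and 10.6% ± 0.64 with poly I:C under 2-CM (SD, n = 2). Under DMSO the share of XPO5 was lower with poly I:C, 5.99% ± 0.22 with depc and 2.80% ± 2.1 with poly I:C, and under RES it was higher, 4.27% ± 0.95 and 6.21% ± 0.076. For XPO5 none of these pairs of groups overlapped. The shares of DICER1 and XPO5 were not tested, and how many other genes were so ordered was not counted.

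Across the 12 libraries the Pearson correlations of log2(TPM + 1) among the genes other than TARBP2 were positive and uneven, from 0.27 for XPO5 and AGO3 and 0.55 for DICER1 and AGO1 upwards. DICER1 and DROSHA had a correlation of 0.93, DROSHA and AGO2 0.92, DROSHA and AGO4 0.90 and DICER1 and AGO2 0.89. TARBP2 had correlations from -0.55 with AGO4 to 0.03 with XPO5. The libraries themselves differed along GC content, and the correlation with that trend was 0.82 for TARBP2, -0.80 for AGO4 and -0.71 for DICER1. These are descriptions over 12 libraries that share groups and the GC trend.

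For 4 of the 9, DICER1, DROSHA, AGO2 and TARBP2, the 3 genes most like each over the 12 libraries were named among those with a mean TPM of 5 or more. For DICER1 they were USP24, a deubiquitinase (Pearson r 0.99), PALM2-AKAP2 (0.99) and SH3D19 (0.99), with 42.6% to 43.9% GC. For DROSHA they were SFT2D2 (0.98), SLC35E1 (0.98) and the kinesin KIF1B (0.98). For AGO2 they were ARHGEF12 (0.97), ALMS1 (0.97) and the kinase HIPK2 (0.97). For TARBP2 they were HDHD5 (0.99), OAZ1, the inhibitor of ornithine decarboxylase (0.98), and the aldose reductase AKR1B1 (0.98), with 53.8% to 63.04% GC.

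Other genes of the pathway were counted in lists. Of 8 nuclear partners of the Microprocessor, 1 fell under DMSO, against 3.28% of all genes: SRRT, encoding ARS2, a cap-binding cofactor of microRNA processing, went from 104 ± 3.41 to 61.5 ± 5.57 TPM (-0.76, adjusted p 0.0367, limma). The call was lost in a fit of only the DMSO groups, where no gene was called lower. Under 2-CM 5 of the 8 rose and none fell, where 37.5% of all genes were called higher, led by the helicase DDX5 (2.20, adjusted p 0.0277), the cap-binding NCBP2 (2.07) and HNRNPA1 (1.77). Averaged over compounds 3 rose, DDX5, HNRNPA1 and RAN, the GTPase that drives exportin transport, and 2 fell, SRRT (-0.57) and KHSRP (-0.46), the latter a binder of microRNA precursors, against 13.4% of all genes higher and 17.8% lower. The median of the 8 under 2-CM was 1.48, against 0.61 for all genes. DDX5, NCBP2 and HNRNPA1 have 42.8% to 43.3% GC, and the median of all genes in their GC bin under 2-CM was 1.44. On average over compounds it was 0.58, and 0.42 in the bin of RAN. SRRT and KHSRP have 57.2% and 60.4% GC, and the averaged medians of their bins were -0.28 and -0.42. The fall of KHSRP was thus near the median of its bin.

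Of 9 Dicer partners and loading chaperones, none was called under DMSO or RES (4.08% and 0.442% of all genes) and 8 rose under 2-CM (37.5% of all genes), with a median of 1.89 against 0.61 for all genes. TSNAX and TSN, the subunits of the C3PO nuclease that clears the passenger strand, rose by 2.67 and 1.98, and the chaperone HSP90AA1 by 2.15 (adjusted p 0.0281, limma). Their exons have 36.4%, 42.5% and 46.3% GC in turn. The medians of all genes in those GC bins under 2-CM were 1.92, 1.44 and 0.79. HSP90AA1 and PRKRA rose on average over compounds, by 0.98 and 0.93, against 13.4% of all genes. The averaged median of all genes in their GC bin was 0.28. PRKRA encodes PACT, a further double-stranded RNA-binding partner of Dicer. TARBP2 and PRKRA encode related Dicer partners and lay on opposite sides: PRKRA went from 12.9 ± 3.95 to 38.5 ± 0.82 TPM under 2-CM and TARBP2 from 107 ± 17.9 to 55.4 ± 1.43 TPM (SD, n = 2). PRKRA has 46.4% GC and TARBP2 56.9%, and the part of GC content in this contrast was not tested.

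Of 20 silencing effectors, none was called under DMSO or RES, where 4.08% and 0.442% of all genes were, and 11 rose and none fell under 2-CM, where 37.5% of all genes were called higher. Their median under 2-CM was 1.21, against 0.61 for all genes. The largest differences there were those of the deadenylases CNOT7 (2.09) and CNOT8 (1.96) and the exonuclease XRN1 (2.08, adjusted p 0.0488, limma). On average over compounds CNOT8, CNOT7 and the decapping activator DCP1A rose, and EDC4, a scaffold of decapping, fell by 0.62 (adjusted p 0.0152), against 13.4% of all genes higher and 17.8% lower. EDC4 has 59.5% GC, CNOT7 36.8%, XRN1 37.1% and CNOT8 45.9%. The medians of all genes under 2-CM were 1.92 in the GC bin of CNOT7 and XRN1 and 0.79 in that of CNOT8. On average over compounds the bin medians were 0.74 for CNOT7, 0.28 for CNOT8, 0.42 for DCP1A and -0.42 for EDC4.

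Of 9 genes of microRNA tailing and decay, SND1, encoding Tudor-SN, a nuclease of the argonaute complex, fell under DMSO, from 166 ± 9.04 to 80.2 ± 11.99 TPM (-1.05, adjusted p 0.0194, limma), where 3.28% of all genes were called lower. In a fit of only the DMSO groups no gene was called lower, so the DMSO call of SND1 was lost. SND1 also fell under 2-CM (-0.93, adjusted p 0.0237, with 11.8% of all genes called lower) and on average (-0.87, adjusted p 0.00108). The uridylyltransferases TUT4 (2.08) and TUT7 (1.64) and the poly(A) polymerase TENT2 (2.57) were among 5 that rose under 2-CM, against 37.5% of all genes. Their exons have 39.0%, 40.3% and 36.7% GC, and the medians under 2-CM were 1.66 in the bin of TUT4 and TUT7 and 1.92 in that of TENT2. On average PARN, a poly(A) ribonuclease, rose by 0.75, against 13.4% of all genes higher. ZSWIM8, a receptor in target-directed microRNA decay, and DIS3L2, a 3′ exonuclease, fell with SND1, by 0.46 and 0.41, against 17.8% lower. PARN, ZSWIM8, DIS3L2 and SND1 have 43.3%, 59.1%, 53.5% and 50.7% GC. The medians of all genes in their GC bins on average were 0.58, -0.42, -0.09 and 0.12 in turn. The fall of ZSWIM8 was thus near the median of its bin. None of the 9 was called under RES, where 0.442% of all genes were. The calls of these lists under 2-CM rest on the same libraries as those of the 9 genes, with 37 to 46 of all genes called once any of the 2-CM libraries was left out. The 4 PIWI genes, germline relatives of the argonautes, were below the filter, with PIWIL4 the highest at up to 1.05 TPM.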

How the data were processed

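Transcript coverage, FPKM and TPM on GRCh38 were deposited from StringTie 2.0.4 with GENCODE 32, per the file headers, and HISAT2 2.1.0 is named in the submitters' processing notes. Transcript TPM was summed per gene with Python 3.11.15. Transcript classes, such as protein-coding and retained intron, were taken from GENCODE 44 by transcript identifier without its version. Some transcripts of DROSHA, DICER1 and DGCR8 had no match and were in no class. Genes reaching 1 TPM in 2 or more of the 12 libraries (17185) were tested with limma 3.58.1 in R 4.3.3 on log2(TPM + 1), with a mean for each of 6 groups and variances moderated along abundance. No count table was used. Calls needed a Benjamini-Hochberg adjusted p under 0.05 within a comparison, over all tested genes. The scripts were tested on simulated data. GC correction subtracted a spline (6 degrees of freedom) of log2 differences on exon GC content in each library.

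The authors' deposited tables hold a mean normalised count (a signal), a log2 fold change, a test score and a p-value per gene. The authors' use of DESeq2, with no version, is per the submitters' processing notes.

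The 9 genes were named by rule, and at most the 3 called genes with the largest change per list, comparison and direction. Those genes needed a mean TPM of 5 or more in at least 1 group. XRN1, TUT7 and MIR4453HG reached that mean only with 2-CM and poly I:C. PARN and MIR4458HG reached it only in groups with poly I:C, where they were high. The members and lists were chosen with earlier results of these data known. Alternatives were another pseudocount, filters, FPKM, scalings, smaller fits, GC correction, a replicate block and leaving out each library.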

Additional observations from a re-analysis of the deposited data

How the results depend on the processing

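Counts of the 9 genes called changed as follows, with the share of all genes called by the same fit in parentheses. Under DMSO 0 became 4 with GC correction, without (16.0%) or with (14.9%) the replicate block. Under 2-CM 3 (49.3%) became 0 with no filter on low genes (1.61%), 1 with upper-quartile scaling (44.2%), 2 with FPKM (48.0%) or a TPM minimum of 5 (59.1%), 7 in the fit of only the groups compared (69%) and 5 with GC correction, without (30.2%) or with (29.9%) the block. Median-of-ratios scaling called 3 (43.8%), all lower: XPO5, TARBP2 and AGO1. Over single libraries left out the count ran from 0 (any 2-CM library, at most 0.268%) to 5 (either RES depc library, at most 59.1%). Under RES 0 became 2 with GC correction (3.28%), and 0 with the block and GC correction (2.64%). The average went from 1 (31.2%) to 3 with upper-quartile (36.6%) or median-of-ratios scaling (36.3%), 8 with GC correction (37.2%) and 7 with the replicate block and GC correction (36.9%), and from 0 to 1 over libraries left out. For 2-CM against DMSO with poly I:C, 0 became 1 with GC correction (4.15%), and 0 with the block and GC correction (3.11%). The other counts were 0 in each fit run without crossed numbers. The cause was not tested.

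The replicate block alone gave 3 calls under 2-CM and 1 on average, as without it, and without GC correction it changed no call of a single gene. The labels do not say that replicate numbers pair libraries: deviations of same-numbered libraries correlated at 0.153 to 0.761 among the 5 groups other than RES poly I:C, and at -0.796 to -0.307 between those and RES poly I:C. With the RES poly I:C numbers crossed, an alternative added after seeing the data, the block called 4 under DMSO (17.8% of all genes), 7 under 2-CM (68.2%), 3 on average (60.4%), 7 for the difference of response, 2-CM minus DMSO (42.5%), and 8 for 2-CM against DMSO with poly I:C (50.7%).

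Signs turned in 57 of 1075 alternative values of 47 results on single genes, in which the average over compounds was followed for TARBP2 alone. GC correction put that average at 0.17 for DGCR8, -0.66 for AGO3 and -0.29 for AGO4, each with the sign turned. Under 2-CM, GC correction gave -0.25 for DICER1, -0.72 for DROSHA, -0.71 for XPO5, -0.80 for AGO1, -0.27 for AGO2, -0.64 for AGO3 and -0.092 for AGO4, also with the block. Upper-quartile scaling gave -0.10 for DROSHA, -0.043 for DGCR8, -0.50 for XPO5 and -0.44 for AGO1, median-of-ratios scaling -0.31, -0.25, -0.72 and -0.63 for them and -0.17 for AGO2, and FPKM -0.042 for XPO5 and -0.038 for AGO1. FPKM turned XPO5 under RES to 0.049. For the difference of response, GC correction gave -0.0040 for DROSHA, -0.20 for XPO5, -0.13 for AGO1 and -0.34 for AGO3, upper-quartile scaling -0.12 for XPO5, and median-of-ratios scaling -0.36 for XPO5 and -0.10 for AGO1. For 2-CM against DMSO with poly I:C, XPO5 was at -0.072, -0.16 and -0.022 with upper-quartile scaling, median-of-ratios scaling and GC correction, and AGO3 at -0.25 with GC correction. Over libraries left out, signs turned under DMSO for AGO3 (-0.62 to 0.12) and AGO4 (-0.74 to 0.025), under 2-CM for XPO5 (-0.10 to 0.33) and AGO1 (-0.075 to 0.26), under RES for DICER1 (-0.95 to 0.23), DROSHA (-0.60 to 0.16), XPO5 (-0.47 to 0.37) and AGO4 (-0.82 to 0.40), and for TARBP2 in 2-CM against DMSO with poly I:C (-0.36 to 0.11). AGO3 was not tested at a TPM minimum of 5. Groups of 2 libraries limit the precision: 95% intervals for 1 comparison of groups reached from 0.44 (DGCR8) to 1.29 (DICER1) either side on the log2 scale.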

Other observations

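Long RNAs named as hosts of microRNAs were followed as a further group, with 19 of 64 passing the filter on low values. None of the 19 was called by limma under DMSO or RES (4.08% and 0.442% of all genes), 7 rose and none fell under 2-CM, where 37.5% of all genes were called higher and 11.8% lower, and 4 rose on average over compounds, against 13.4%. MIR100HG, the host of miR-100 and let-7a-2, went from 4.41 ± 1.26 TPM with depc to 24.7 ± 1.84 TPM with poly I:C under 2-CM (SD, n = 2, log2 difference 2.26, adjusted p 0.0335 by limma). MIR99AHG, the host of miR-99a and let-7c, went from 4.64 ± 1.85 to 18.0 ± 1.89 TPM (1.78, adjusted p 0.0463), and MIR4453HG from 1.11 ± 0.13 to 5.28 ± 0.52 TPM (1.57, adjusted p 0.0278). MIR100HG and MIR99AHG are AT-rich, with 40.2% and 35.9% GC, and the part of GC content in their rise was not tested.

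MIR503HG, the host of miR-503, has 53.3% GC and rose on average over compounds by 0.65 (adjusted p 0.0125, limma). It was at 8.69 ± 0.32 TPM with depc and 21.4 ± 0.62 TPM with poly I:C under 2-CM, 11.2 ± 2.42 and 16.6 ± 1.73 TPM under DMSO, and 10.2 ± 2.08 and 11.9 ± 2.71 TPM under RES. The RES libraries of MIR503HG overlapped. MIR4458HG rose on average by 0.83 (adjusted p 0.0294, limma), with 2.03 ± 0.21 and 5.94 ± 2.07 TPM under DMSO, 3.87 ± 0.81 and 9.68 ± 5.70 TPM beside 2-CM, and 4.91 ± 1.51 and 6.20 ± 1.24 TPM beside RES, where the libraries overlapped. MIR4458HG has 39.9% GC. The averaged medians of all genes were -0.09 in the GC bin of MIR503HG and 0.66 in that of MIR4458HG. Host RNA levels do not measure the mature microRNAs.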
